A study of Homo sapiens with 4 samples.

Results

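RNA-binding and RNA-processing genes were followed in SCC1 and FaDu, human cell lines of head and neck squamous carcinoma, after a siRNA against FOSL1 or a control siRNA. FaDu is an established hypopharyngeal line. The product of FOSL1, FRA1, is 1 of the proteins that make up the transcription factor AP-1. The genes were chosen by their deposited full names, which had to contain splicing, RNA binding, ribonucleoprotein, DEAD, DEAH or RNA processing. Names with kinase, ubiquitin, mitochondri, pseudogene, antisense or non-protein coding, and symbols starting with ZNF, were left out. The rule found 13 of the 2770 distinct genes in the authors' tables, 10 in SCC1 and 5 in FaDu, with ESRP2 and RBM24 in both. The 4 groups were SCC1 with FOSL1 siRNA, SCC1 with control siRNA, FaDu with FOSL1 siRNA and FaDu with control siRNA, each a single library of total RNA taken 48 h after treatment. The controls had the control siRNA and carried no other change in the labels. The SCC1 control's column name carries an unexplained suffix; the column was matched to the single SCC1 control sample, and every SCC1 fold rests on that match.

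The tables hold only genes that passed the authors' own comparison within a line, so a gene outside a table has no value here and is not called unchanged. Levels are in CPM, reads scaled to the library size, and are not corrected for gene length. The sizes of the libraries, as implied by what a single read is worth, were 11280745 reads for SCC1 with FOSL1 siRNA, 13242163 for its control, 10365774 for FaDu with FOSL1 siRNA and 11477600 for its control. With 1 library per group, no difference has a replicate check and no test across conditions was made. A lower level in such bulk RNA can come from fewer cells that hold the transcript or from less of it per cell, which cannot be told apart. Each fold is followed by its 95% exact binomial interval, which covers counting error only; PCR copies cannot be told from separate molecules here, so it can be too narrow. FOSL1 itself was at 3.99 CPM after FOSL1 siRNA against 133 CPM in the SCC1 control, and at 36.9 CPM against 774 CPM in FaDu. The precursor ribosomal RNA, RNA45S5, was at 433 CPM after FOSL1 siRNA against 151 CPM in the SCC1 control, and at 2766 CPM against 901 CPM in FaDu. Its part in the results below was not tested. Of 10 squamous epithelial markers, CDH1 and PERP were listed in SCC1 and KRT17 in FaDu, all higher after FOSL1 siRNA; their sum was 780 CPM against 399 CPM in the SCC1 control and 2609 CPM against 794 CPM in FaDu. Of 15 fibroblast, leukocyte and endothelial markers, CD68 was lower in both lines, and in FaDu COL3A1 was lower and CD14 higher. The listed leukocyte markers summed to 3.99 CPM against 17.3 CPM in the SCC1 control and to 15.0 CPM against 38.3 CPM in FaDu, and COL3A1 had 2.22 CPM against 7.84 CPM in FaDu. The other markers have no value in these tables, and the part of these differences in the results was not tested.

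RNA-binding proteins accompany an RNA from transcription to decay. In the nucleus, small nuclear ribonucleoproteins form the spliceosome and other proteins decide which exons it joins, and epithelial cells keep a splicing programme of their own. DEAD-box proteins use ATP to remodel RNA, and some of them sense viral RNA as part of the interferon response. In the cytoplasm, further RNA-binding proteins set how long a messenger RNA lasts and how much of it is translated.

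The first comparison asks which of these genes differ in SCC1 after FOSL1 siRNA. Of the 10 SCC1 members, 8 were lower and 2 were higher. Among all 1903 genes listed in SCC1, 59.4% were lower and 40.6% were higher. The lower members were the helicase genes DDX58, DDX60 and DDX60L, the splicing regulator ESRP2, the spliceosome gene SNRPN, and LARP1, RBM24 and RBMS3; AAR2 and IGF2BP1 were higher. The members' median fold in either direction was 2.24, against 2.58 over all listed genes. In FaDu, the second comparison, 3 of the 5 members were lower, namely ESRP2, IGF2BP2 and RBM24, and MEX3B and PRPF39 were higher. There 57.5% of the 1545 listed genes were lower and 42.5% higher, and the median fold was 2.30 for members against 2.68 for all listed genes. In the authors' deposited table, SNRPN in SCC1 and RBM24 in FaDu were the only members with an FDR under 0.05, a threshold that 27.4% of listed genes passed in SCC1 and 25.4% in FaDu. The median log2 fold of all listed genes was -1.05 in SCC1 and -1.01 in FaDu. Setting it to 0 left 2 members higher and 2 lower (SNRPN and RBM24) by at least 1.5-fold in SCC1. In FaDu it left 2 higher and 1 lower (RBM24). That median rests on filtered tables with a smallest fold of 1.88 in each line. With more genes lower than higher it lies among the falls, so the scaled counts do not settle the split.

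**Figure D1:**
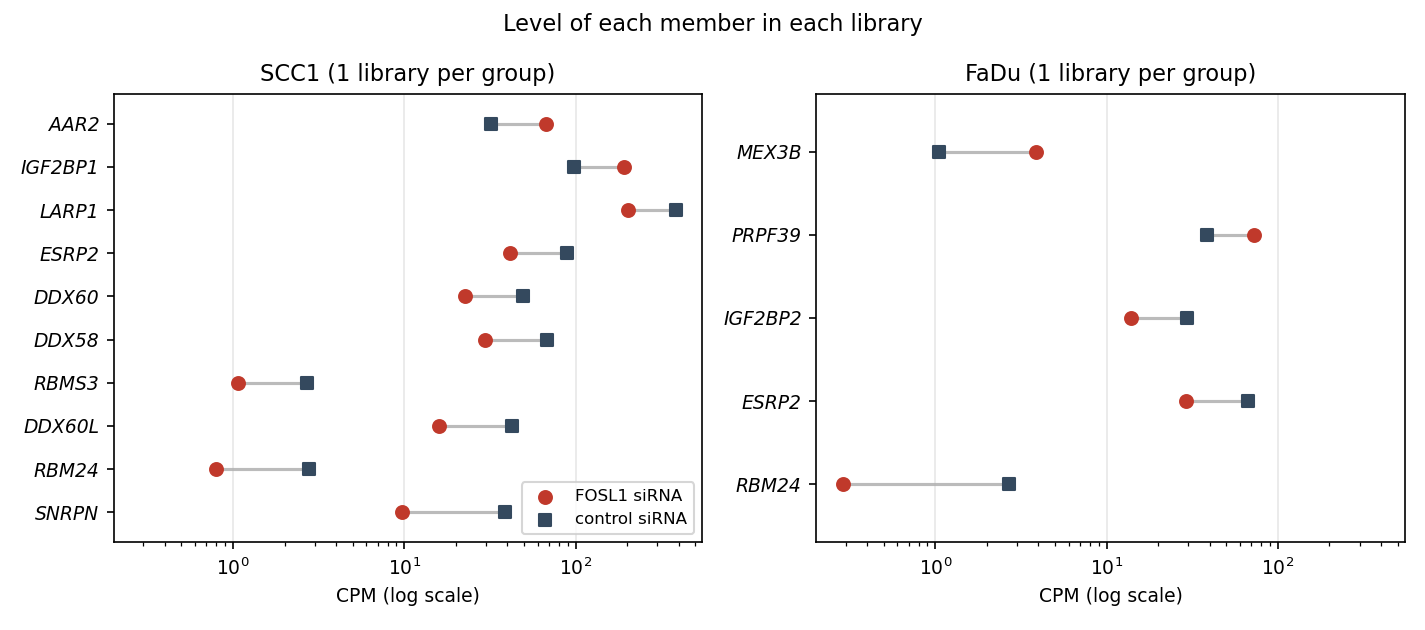
Level of each member in each library, in CPM on a log axis, for SCC1 (left) and FaDu (right). Circles are FOSL1 siRNA and squares are control siRNA, 1 library each; 8 of 10 SCC1 members and 3 of 5 FaDu members have the circle left of the square.

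Among the splicing factors, ESRP2, which with its relative ESRP1 directs the exon choices typical of epithelial cells, was lower in both lines. It had 41.2 CPM (465 reads) in SCC1 with FOSL1 siRNA, against 89.3 CPM (1182 reads) in the control. It was thus 2.17-fold lower (1.94 to 2.42). In FaDu it had 28.9 CPM (300 reads) with FOSL1 siRNA, against 66.7 CPM (765 reads) in the control, 2.30-fold lower (2.01 to 2.64). The intervals of both lines overlap, and in the authors' deposited table its FDR was 0.196 (SCC1) and 0.175 (FaDu). ESRP1 was in neither table. ESRP2's exons share 2.68% of their bases with NFATC3 on the opposite strand, and NFATC3 was in neither table.

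AAR2, whose yeast counterpart takes part in assembly of the U5 small nuclear ribonucleoprotein, was one of the higher members in SCC1. It had 66.9 CPM (755 reads) with FOSL1 siRNA, against 31.9 CPM (423 reads) in the control, 2.10-fold higher (1.86 to 2.37). PRPF39, a factor that works with the U1 particle at the start of splicing, was higher in FaDu. It had 72.7 CPM (754 reads) with FOSL1 siRNA, against 38.4 CPM (441 reads) in the control, 1.89-fold higher (1.68 to 2.13). The authors' deposited table gave AAR2 an FDR of 0.230 and PRPF39 an FDR of 0.416. The value of PRPF39 is uncertain because 13.2% of its exon bases overlap FKBP3 on the opposite strand, and the strand setting is not given in the sources used here. FKBP3 was in neither table.

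SNRPN encodes SmN, a core protein of small nuclear ribonucleoproteins made from an imprinted locus and best known from brain. Its fold was the largest of the 10 SCC1 members, although the intervals of RBM24 and RBMS3 cover it. It had 9.75 CPM (110 reads) in SCC1 with FOSL1 siRNA, against 38.9 CPM (515 reads) in the control, 3.99-fold lower (3.24 to 4.95). Its FDR in the authors' deposited table was 0.00417, and ranked by p-value SNRPN was number 175 of 1903. SNURF, which is made from the same transcript, covers 23.8% of SNRPN's exon bases on the same strand. It had 12.8 CPM (144 reads) with FOSL1 siRNA, against 47.9 CPM (634 reads) in the control, 3.75-fold lower (3.13 to 4.53). Reads in the shared part can be assigned to either gene, so these are not clearly separate members. Of the 27 genes of the snRNP and Sm or LSm core, SNRPN was the one listed gene in SCC1, and no gene of that core was listed in FaDu.

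The 3 DEAD-box members were all lower in SCC1, and none was listed in FaDu. DDX58 encodes RIG-I, a cytoplasmic sensor of viral RNA. It had 29.4 CPM (332 reads) with FOSL1 siRNA, against 67.8 CPM (898 reads) in the control, 2.30-fold lower (2.03 to 2.62). DDX60, an interferon-induced helicase linked to antiviral responses, had 22.6 CPM (255 reads) with FOSL1 siRNA, against 49.3 CPM (653 reads) in the control, 2.18-fold lower (1.88 to 2.53). Its relative DDX60L had 16.0 CPM (180 reads) with FOSL1 siRNA, against 42.8 CPM (567 reads) in the control, 2.68-fold lower (2.27 to 3.19). The 3 intervals overlap one another. In the authors' deposited table, the FDRs were 0.146 for DDX58, 0.196 for DDX60 and 0.0674 for DDX60L. DHX58, a RIG-I relative whose full name does not match the words above, had 4.79 CPM with FOSL1 siRNA, against 12.5 CPM in the control, 2.60-fold lower (1.90 to 3.61). In FaDu, where these helicases have no value, the interferon-induced genes IFIT1 and MX1 were 3.09-fold higher (2.83 to 3.38) and 2.63-fold higher (2.09 to 3.33). Their authors' deposited FDRs were 0.0258 and 0.104. These 2 genes were picked after their values were seen, and other interferon-induced genes were not counted. IFIT1 and MX1 in turn have no value in SCC1. None of these genes can thus be compared between the lines, and a difference between the lines was not tested.

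The promoters of DDX60 and DDX60L are shown because these related genes on chromosome 4 were both lower. Each sequence, from RefSeq on build GRCh38.p14, runs 5′ to 3′ from 250 bases before the gene's start to 50 after it, with the longest run of bases found in both in capitals.
DDX60 (chr4:168318703-168319002, minus strand): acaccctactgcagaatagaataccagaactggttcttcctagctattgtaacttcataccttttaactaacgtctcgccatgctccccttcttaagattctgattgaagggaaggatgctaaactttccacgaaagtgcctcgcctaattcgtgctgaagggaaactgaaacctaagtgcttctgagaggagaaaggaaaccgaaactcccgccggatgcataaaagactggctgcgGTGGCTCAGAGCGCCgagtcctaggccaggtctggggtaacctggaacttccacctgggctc
DDX60L (chr4:168480443-168480742, minus strand): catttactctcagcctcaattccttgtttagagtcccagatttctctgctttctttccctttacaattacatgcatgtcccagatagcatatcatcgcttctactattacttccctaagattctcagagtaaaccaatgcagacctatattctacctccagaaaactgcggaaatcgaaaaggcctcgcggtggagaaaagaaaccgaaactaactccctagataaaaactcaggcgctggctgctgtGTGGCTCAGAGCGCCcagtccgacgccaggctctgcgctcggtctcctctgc
The shared run is 15 bases long and begins at -12 from the start in DDX60 and at -2 in DDX60L. A global alignment of the 300-base windows had 54.5% identical columns. The pair was chosen after the values were seen, and the shared run describes the sequence only.

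**Figure D2:**
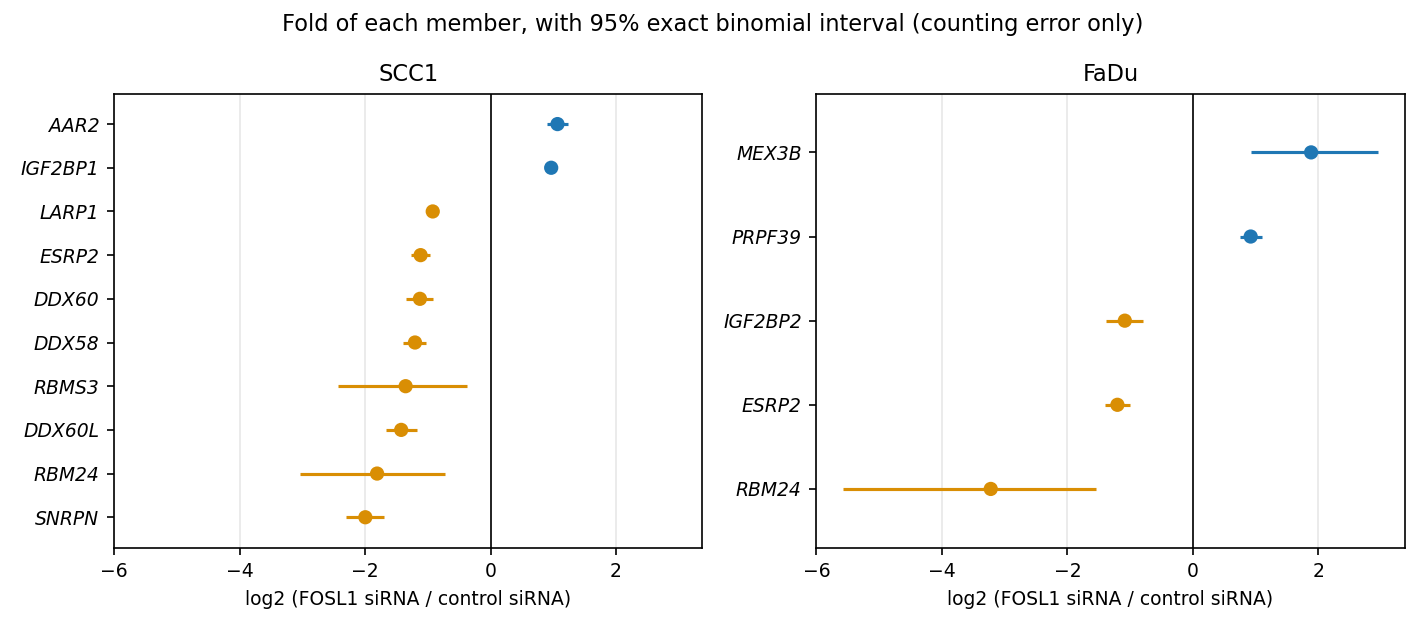
Log2 ratio of FOSL1 siRNA to control siRNA for each member in SCC1 (left) and FaDu (right), with 95% exact binomial intervals as bars; blue marks higher and orange lower members. RBM24, RBMS3 and MEX3B have the widest bars, since at most 40 reads were counted in any of their libraries.

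Genes for proteins that act on mRNA in the cytoplasm included higher and lower members. LARP1, which controls messenger RNAs with a terminal oligopyrimidine tract such as those of ribosomal proteins, was the member closest to no difference in SCC1. It had 203 CPM (2287 reads) with FOSL1 siRNA, against 384 CPM (5084 reads) in the control, 1.89-fold lower (1.80 to 1.99). The smallest fold of any gene listed in SCC1 was 1.88. The authors' deposited table gave LARP1 an FDR of 0.331. After scaling to the median fold it was higher, at 0.13 on the log2 scale. That median comes from a filtered table, so the scaled value does not settle the direction of LARP1.

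IGF2BP1 and IGF2BP2 are related proteins that bind and stabilise target messenger RNAs, IGF2 among them. IGF2BP1 was higher in SCC1, with 191 CPM (2156 reads) after FOSL1 siRNA, against 97.8 CPM (1295 reads) in the control, 1.95-fold higher (1.82 to 2.10). IGF2BP2 was lower in FaDu, with 13.8 CPM (143 reads) after FOSL1 siRNA, against 29.3 CPM (336 reads) in the control, 2.12-fold lower (1.74 to 2.60). Each was listed in 1 line only, so no contrast between the pair was made within a line. The authors' deposited table gave FDRs of 0.295 and 0.290. IGF2BP2 is uncertain because another annotated gene matches 1070 bases of its 3688-base transcript at 95.6% identity. MEX3B, which binds messenger RNA through KH domains, had 3.86 CPM (40 reads) in FaDu with FOSL1 siRNA, against 1.05 CPM (12 reads) in the control, 3.69-fold higher (1.90 to 7.73), with an authors' deposited FDR of 0.0871.

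The letters TGANTCA, a loose form of the AP-1 site, were searched on both strands of the same windows. They were in 2 of the 10 members with a promoter entry, LARP1 and IGF2BP2, against 9.37% of all genes and 7.71% of all promoters in the table. The 2 windows are shown with the match in capitals, from RefSeq on build GRCh38.p14, 5′ to 3′.
LARP1 (chr5:154682729-154683028, plus strand): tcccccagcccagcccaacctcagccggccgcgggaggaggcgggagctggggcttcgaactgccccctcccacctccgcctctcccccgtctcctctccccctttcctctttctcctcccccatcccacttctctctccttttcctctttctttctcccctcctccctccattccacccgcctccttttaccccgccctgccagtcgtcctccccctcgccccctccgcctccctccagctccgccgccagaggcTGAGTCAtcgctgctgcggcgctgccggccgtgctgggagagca
IGF2BP2 (chr3:185821093-185821392, minus strand): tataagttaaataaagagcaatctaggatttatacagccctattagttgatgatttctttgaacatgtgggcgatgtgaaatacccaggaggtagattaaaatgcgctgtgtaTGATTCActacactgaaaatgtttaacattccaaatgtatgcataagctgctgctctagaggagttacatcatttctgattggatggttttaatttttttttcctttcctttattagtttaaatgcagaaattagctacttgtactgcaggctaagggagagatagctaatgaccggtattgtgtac
The match was TGAGTCA at 6 bases past the start in LARP1, at 1 of its 4 annotated starts. In IGF2BP2 it was TGATTCA at -137 bases, at 1 of its 2 starts. The stricter form TGACTCA, on either strand, was matched in LARP1 but not in IGF2BP2. ESRP2, IGF2BP1 and PRPF39 had no entry, and DDX58 was matched under its current symbol RIGI. RBM24, SNRPN, AAR2, RBMS3, MEX3B and the 3 helicases had no match in any window, which says only that these letters are not there.

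RBM24, a splicing regulator best known from heart and skeletal muscle, had the largest fold of the 5 FaDu members on few reads. It had 0.289 CPM (3 reads) in FaDu with FOSL1 siRNA, against 2.70 CPM (31 reads) in the control, 9.33-fold lower (2.91 to 47.7). In SCC1 it had 0.798 CPM (9 reads) with FOSL1 siRNA, against 2.79 CPM (37 reads) in the control, 3.50-fold lower (1.66 to 8.25). In FaDu its interval covers the size of the MEX3B fold, 3.69, which was a rise. The wide intervals of RBM24 overlap between the lines. Its FDR in the authors' deposited table was 0.125 (SCC1) and 0.00888 (FaDu), where its fold ranked number 104 of 1545. RBMS3, which binds single-stranded nucleic acids, was also low in SCC1, with 1.06 CPM (12 reads) after FOSL1 siRNA, against 2.72 CPM (36 reads) in the control, 2.56-fold lower (1.30 to 5.39). Its authors' deposited FDR was 0.299, and its value is uncertain because 5.61% of its exon bases lie in another annotated gene on the same strand.

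The third comparison asks whether both lines list the same genes. Both tables held 2 of the 13 members, which is 20% of those in SCC1 and 40% of those in FaDu. Over all genes, the overlap made up 35.6% of the SCC1 table and 43.9% of the FaDu table. ESRP2 and RBM24 were both lower in each line, and 96.6% of the 678 genes listed in both had the same direction. Each line was set against its own control.

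**Figure D3:**
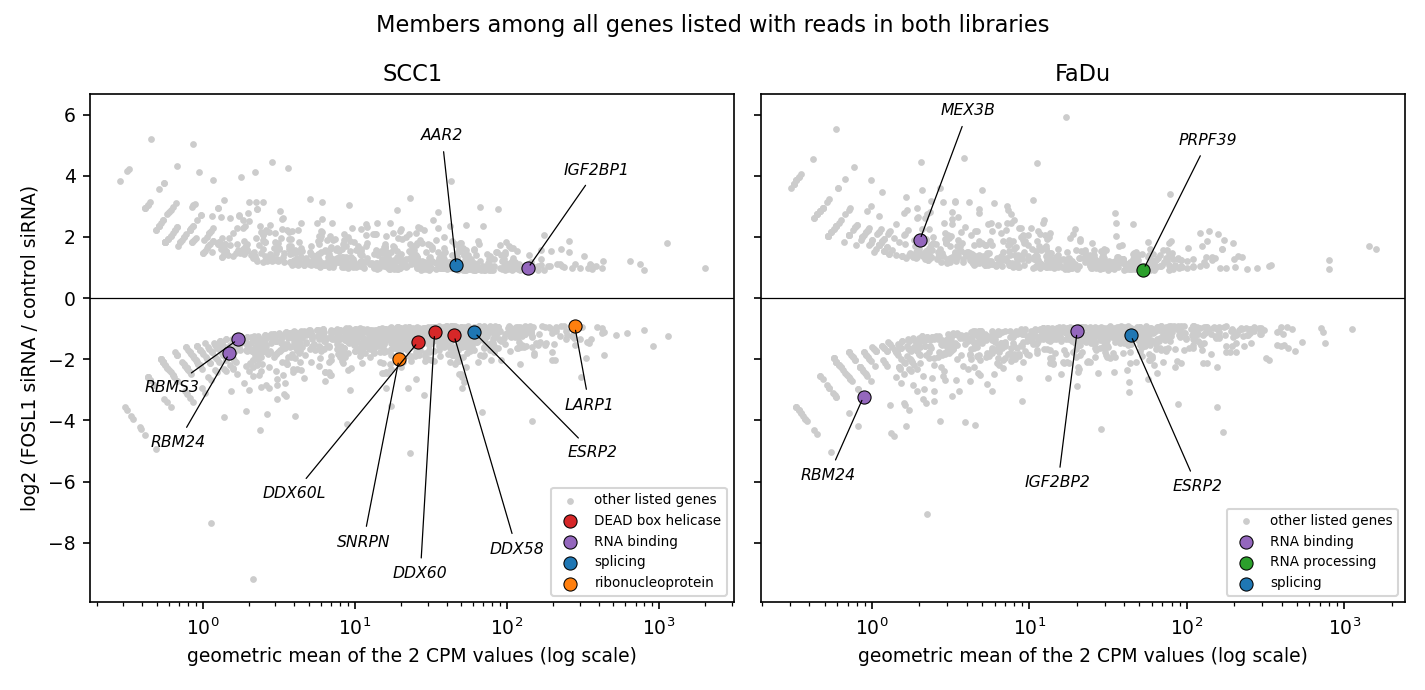
Log2 ratio of FOSL1 siRNA to control siRNA against the geometric mean of the 2 CPM values, with members coloured by role among the other listed genes in grey, in SCC1 (left) and FaDu (right). The empty band around 0 is the authors' filter; LARP1 in SCC1 and PRPF39 in FaDu lie at its edge, at 1.89-fold each.

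The wider machinery was described with 12 lists of 366 genes in all. In SCC1, 14 were lower, 4 higher and 348 not listed, so 4.92% were listed. In FaDu, 6 were lower, 3 higher and 357 not listed, so 2.46% were listed. The number of genes the authors tested, 13796 in each line, was inferred from the FDR and p-value of the gene with the smallest p-value. The authors listed 13.8% of these in SCC1 and 11.2% in FaDu. How many of the 366 they tested is not known here. After scaling to the median fold, 3 list genes were lower and 4 higher in SCC1, and 3 lower and 3 higher in FaDu. These scaled counts do not settle the split either, since the median comes from a filtered table. No SR protein or regulator of 24 and no hnRNP protein of 26 was listed in either line. Of a list of 28 further splicing factors, mostly of the U2 and tri-snRNP particles, PRPF39 was the one listed gene; the list does not cover every such factor. Of 54 DEAD and DEAH box helicases, DDX58, DDX60 and DHX58 were listed in SCC1. The member DDX60L is not among these 54. Of 24 tissue and signal regulated splicing factors, ESRP2 and RBM24 were listed in both lines.

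Several listed genes of these lists have full names without the words that chose the members. Apart from NOLC1, their FDRs in the authors' deposited table lay between 0.108 and 0.346. SMG5, which takes part in nonsense-mediated decay, was lower in both lines. It had 87.1 CPM with FOSL1 siRNA, against 167 CPM in the control, in SCC1, 1.92-fold lower (1.78 to 2.07). In FaDu it had 109 CPM with FOSL1 siRNA, against 237 CPM in the control, 2.18-fold lower (2.03 to 2.33). In the same list of 25, THOC6, an mRNA export factor, was 2.35-fold lower (2.04 to 2.71) and SMG8 1.94-fold higher (1.74 to 2.17) in SCC1. Of 20 cleavage and polyadenylation genes, CPSF1 was 1.91-fold lower (1.76 to 2.06) and the scaffold gene SYMPK 1.98-fold lower (1.77 to 2.21) in SCC1.

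CPEB3, which regulates polyadenylation and translation in the cytoplasm, was higher in both lines. It had 11.9 CPM with FOSL1 siRNA, against 5.21 CPM in the SCC1 control, and 7.14 CPM against 3.22 CPM in FaDu. It was 2.28-fold higher (1.69 to 3.09) in SCC1 and 2.21-fold higher (1.47 to 3.38) in FaDu. Of its list of 33, CPEB2 was 2.72-fold higher (1.87 to 4.02) in SCC1 and CPEB1 was lower in FaDu, with 3 reads after FOSL1 siRNA against 15 in the control, 4.52-fold lower (1.28 to 24.3). In the decay list of 36, the deadenylase subunit PAN2 was 2.80-fold lower (1.87 to 4.29) in SCC1. In the list of 27 for microRNA processing, m6A and editing, DICER1, the nuclease that makes mature microRNAs, was 2.08-fold higher (1.99 to 2.19) in FaDu. Of 42 ribosome biogenesis genes, NOLC1 was 16.3-fold lower (14.7 to 18.0) in SCC1 and 11.9-fold lower (10.9 to 13.1) in FaDu, and BOP1 was 2.33-fold lower (2.15 to 2.52) in SCC1.

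**Figure D4:**
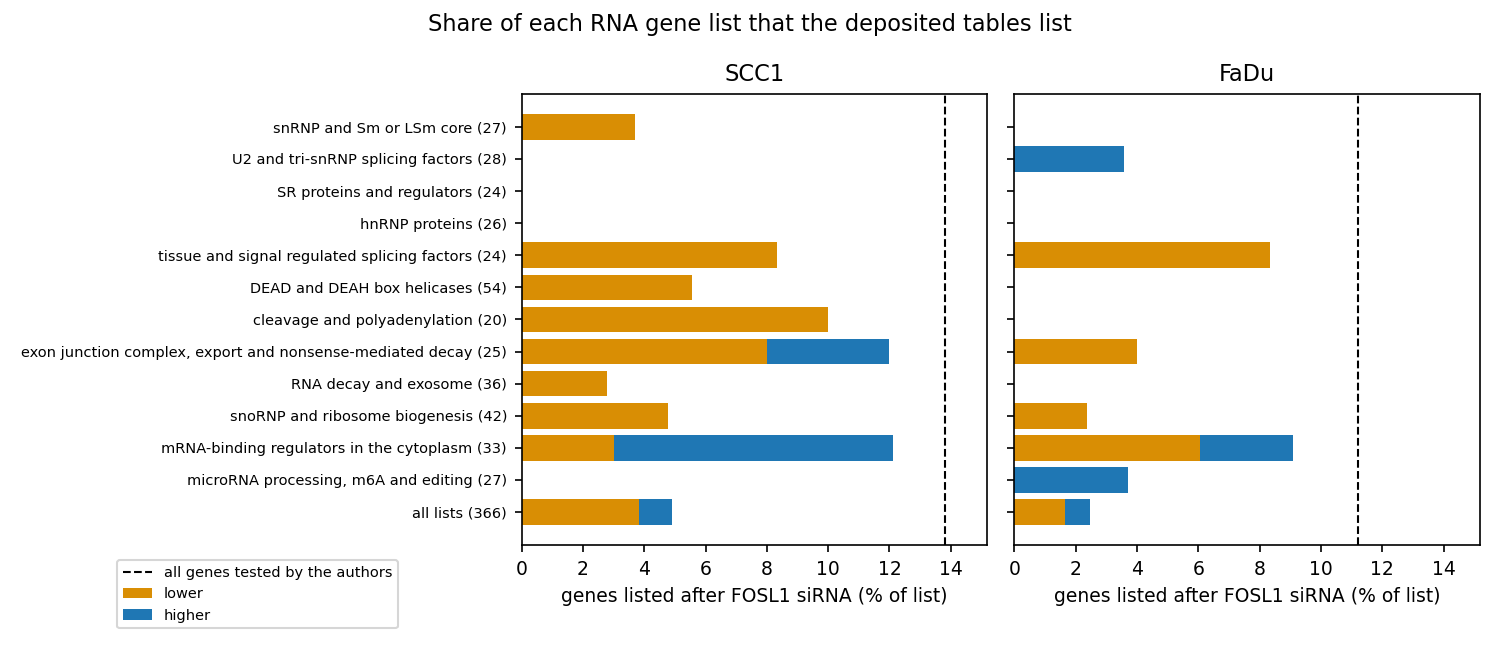
Percent of each RNA gene list that is listed after FOSL1 siRNA, lower in orange and higher in blue, in SCC1 (left) and FaDu (right), with the number of genes in brackets and all lists together at the bottom. The dashed line is the share of all genes tested by the authors, 13.8% in SCC1 and 11.2% in FaDu. The number tested was inferred from the deposited FDR and p-value. All 12 lists end left of the line in both cell lines.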

How the data were processed

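RNA-seq of total RNA was deposited as 1 table per line, with 1 library in each of 4 groups. A KAPA kit was used for the libraries, per the labels' protocols. The submitters' processing notes name TopHat, Cufflinks and build hg18; versions, read counter and strand setting are not stated in the sources used here. The authors deposited CPM values; dividing them by the value of 1 read in each library gave whole numbers, within 0.01, for 100% of them, so reads were recovered. Per the file headers, the tables also hold the authors' p-value, FDR and fold, the last a deposited score with a minus sign for genes lower after FOSL1 siRNA. Every p-value was under 0.05.

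Folds were ratios of CPM without a pseudocount, counted as higher or lower from 1.5-fold. Intervals used SciPy 1.17.1 in Python 3.11.15. With an assumed dispersion of 0.05, the likelihood ratio test of edgeR 4.0.16 (R 4.3.3) on the recovered read counts gave p-values within 1% of the authors' for all 1903 SCC1 and all 1545 FaDu genes, each under 0.05. It compares 2 libraries, not conditions. The scripts were checked on simulated data. Members, gene lists and alternatives were chosen with earlier results of these data known. The genes named in the text were FOSL1, all 13 members, and up to 3 listed genes of each list; SNURF, RNA45S5, IFIT1, MX1, the cell type markers and the genes under other observations were named after their values were seen. Promoters came from RefSeq (GRCh38.p14), for 10 of 13 members, and overlaps and copies (at least 95% identity over 300 bases) from GENCODE release 29; no coordinates of build hg18 are printed. Of the names matching the rule's words, 2 pseudogenes were left out.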

Additional observations from a re-analysis of the deposited data

How the results depend on the processing

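Matching all words without regard to case, summing rows of one symbol, either pseudocount, a minimum of 1 CPM and leaving out SNRPN, IGF2BP2 and RBMS3, which share sequence with another gene, kept every member count within 1.5 times. Of the SCC1 members, 2 higher and 8 lower in the report, and the FaDu members, 2 higher and 3 lower, a 2-fold limit left 1 higher in each line. In SCC1 it kept 8 of 10 members and 1694 of all 1903 listed genes. In FaDu it kept 4 of 5 members and 1402 of all 1545 listed genes. A minimum of 5 CPM left 1 higher in FaDu and 1 member, ESRP2, in both lines. An authors' p-value under 0.01 left 0 higher and 3 lower in SCC1, 1 higher and 1 lower in FaDu, and 1 in both lines. An authors' FDR under 0.1 left 0 higher and 2 lower, 1 higher and 1 lower, and 0 in both. For the limits of 5 CPM, p-value under 0.01 and FDR under 0.1, the share of all listed genes kept was not counted. These counts thus do not say whether members drop out more than other listed genes. Scaling to the median fold left 2 lower in SCC1, 1 lower in FaDu and 1 in both, and turned LARP1 to 0.13. It put the FOSL1 log2 fold at -4.00 in SCC1 and -3.37 in FaDu. All scaled values carry the limit of a median taken from a filtered table. Names with splicing, ribonucleoprotein, DEAD or DEAH alone left 1 higher in SCC1, 0 higher and 1 lower in FaDu, and 1 in both. Chosen after seeing the data, an authors' FDR under 0.05 left 0 higher and 1 lower in each line. The count test at a dispersion of 0.1 left 0 higher and 3 lower in SCC1 and 1 and 1 in FaDu. At 0.16 it left 0 and 1, and 1 and 1. At 0.4 it left 0 and 0, and 0 and 1. Of all listed genes, it left 48.0% in SCC1 and 50.6% in FaDu at 0.1. The shares were 25.4% and 29.8% at 0.16, and 5.68% and 8.03% at 0.4. The cause of these changes was not tested. A stricter limit on fold, level, p-value or FDR can only keep or remove genes, while scaling shifts every fold.

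The list genes, 4 higher and 14 lower in SCC1 and 3 higher and 6 lower in FaDu, became 2 higher in SCC1 at 2-fold. They became 1 and 7, and 0 and 2, at a p-value under 0.01. They became 0 and 2, and 0 and 2, at an FDR under 0.1. They became 3 lower in SCC1 and 3 lower in FaDu after scaling. Here too, the share of all listed genes kept at the p-value and FDR limits was not counted. Older symbols kept the list counts within 1.5 times. With TGACTCA alone, 1 of the 10 members with a promoter entry, LARP1, had a match, 10% in place of 20%. That stricter form was in 6.05% of all genes and 4.95% of all promoters. No paired analysis was possible because each comparison within a line has 1 library per arm. A fit over both lines with line as a block was not run, since only genes that passed the authors' filter in both lines have all 4 values.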

Other observations

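Other genes of RNA metabolism, outside the members and the lists and chosen after their values were seen, were listed in both lines. U2SURP, a protein associated with the U2 particle of the spliceosome, had 93.2 CPM in SCC1 with FOSL1 siRNA, against 256 CPM in the control, 2.75-fold lower (2.56 to 2.95). In FaDu it had 205 CPM with FOSL1 siRNA, against 403 CPM in the control, 1.97-fold lower (1.87 to 2.07). The helicase gene HELZ was 1.90-fold lower (1.66 to 2.17) in SCC1 and 2.31-fold lower (2.02 to 2.64) in FaDu. TRPT1, a tRNA phosphotransferase, was 4.29-fold lower (2.84 to 6.69) in SCC1 and 3.81-fold lower (2.50 to 5.97) in FaDu. The authors' deposited FDRs in SCC1 and FaDu were 0.0484 and 0.347 for U2SURP and 0.343 and 0.174 for HELZ. For TRPT1 they were 0.00749 and 0.0219.

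REXO1, an RNA exonuclease, was 1.88-fold higher (1.72 to 2.07) in SCC1 and 2.06-fold higher (1.85 to 2.28) in FaDu. TERC, the RNA component of telomerase, had 19.9 CPM in FaDu with FOSL1 siRNA, against 2.96 CPM in the control, 6.71-fold higher (4.65 to 9.95). In SCC1 it had 29 reads with FOSL1 siRNA and 0 reads in the control, so its fold has no finite value. The lower limit of the 95% exact binomial interval was 8.65-fold higher. Setting the control library to a floor of 3 reads gave 11.3-fold, which is not a lower limit. The authors' deposited FDRs of TERC were 1.15e-05 in SCC1 and 0.000102 in FaDu.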
